A study of Homo sapiens with 4 samples.

Results

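NF-kB is a family of dimeric transcription factors built from 5 subunits. This account covers those subunits together with 5 proteins grouped here as inhibitors, of which NFKBIZ also works with NF-kB at some targets. The 10 genes were chosen by name, as the rows of the array table whose platform gene symbol was NFKB1, NFKB2, REL, RELA, RELB, NFKBIA, NFKBIB, NFKBIE, NFKBIZ or TNFAIP3. All 10 were found, each with 1 named probe set, among 15870 named genes on 18603 probe sets. The cells were MDA-MB-231, an established human breast carcinoma line. In 2 samples they are labelled shDROSHA, for a short hairpin RNA against DROSHA, the nuclear ribonuclease that starts microRNA maturation, and in 2 they are labelled shNC. The series' design text calls the control mock-transfected instead, and the labels do not say whether the cells were pools or single clones. The replicates are called biological in the titles, and RNA was measured once per sample on an Affymetrix array as log2 signal. The study set the groups side by side to find mRNAs whose level depends on DROSHA.

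In resting cells, dimers of the subunits are held in the cytoplasm by inhibitors of the IkB family, and a kinase complex marks those inhibitors for destruction when a cytokine receptor is engaged. Freed dimers enter the nucleus and switch on inflammatory and survival genes. Among the genes they switch on are their own inhibitors, so that the response limits itself, and for this reason the mRNAs of the inhibitors are widely read as a trace of NF-kB activity. MDA-MB-231 cells are known for constitutive NF-kB activity.

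DROSHA mRNA was lower in the cells meant to lack it, at 8.71 and 8.74 in the shDROSHA arrays against 9.66 and 9.76 in the shNC arrays (log2 signal), a difference of -0.99 (SE 0.073). Of 17 marker genes, 13 had a named probe set. VIM, CAV1, AXL, CD44 and EGFR, known from this line, gave signals of at least 8.89 on every array. ESR1 and EPCAM, of luminal cells, PTPRC, CD3E and CD14, of blood cells, PECAM1, of vessels, and ALB, of liver, gave at most 6.88, but KRT8, another luminal marker, gave 11.4 to 11.6. Since signals of different probe sets depend on their probes, these values do not settle the cell type. Of the 13 markers CAV1 fell by 0.23 and AXL rose by 0.33, and their part in the results below was not tested. Across the array, limma with a prior variance that follows signal level (the trended fit) called 1192 of 18603 probe sets at adjusted p under 0.05, or 6.41%, with 611 lower (3.28%) and 581 higher (3.12%). Centring every array on its own median made 62.5% of the calls higher, against 48.7% as deposited. A fit with 1 constant prior variance called 1 probe set (0.00538%) and none of the 10 members, while 2 members had an unadjusted p under 0.05 in it, beside 14.9% of all probe sets. The words rose and fell below refer to the trended fit.

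Of the inhibitors 2 fell and the 5 subunits did not pass the test. NFKBIA, which encodes the inhibitor IkB-alpha, was 1.24-fold lower in shDROSHA cells, and TNFAIP3, which encodes a ubiquitin-editing enzyme that switches off signalling upstream of the IkB kinases, was 1.43-fold lower. The others grouped as inhibitors, NFKBIB, NFKBIE and NFKBIZ, did not pass. Thus 2 of 10 members fell and 0 rose, beside 3.28% of all probe sets lower and 3.12% higher. The median difference of the members was -0.08 on the log2 scale, and that of all probe sets 0.001. How readily a gene was called depended on its signal: in the brightest of 5 equal bins of probe sets, which holds NFKBIA and NFKBIZ, 15.6% were called, and in the middle bin, which holds TNFAIP3 and NFKB2, 4.7%. In the second brightest bin, which holds NFKB1, REL and RELA, 8.92% were called. In the 2 dimmest bins, which hold NFKBIB, RELB and NFKBIE, 0.833% and 1.94% were called.

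The promoters of the 2 members that fell are shown with their kappa-B consensus matches, from RefSeq on GRCh38.p14. Each window runs from 250 bases before to 50 after the transcription start, read 5′ to 3′ on the gene's strand. Capitals mark every match, on either strand, to the kappa-B consensus, the sequence that NF-kB dimers bind. Start and end give the printed window.
NFKBIA (chr14:35404700-35404999, minus strand): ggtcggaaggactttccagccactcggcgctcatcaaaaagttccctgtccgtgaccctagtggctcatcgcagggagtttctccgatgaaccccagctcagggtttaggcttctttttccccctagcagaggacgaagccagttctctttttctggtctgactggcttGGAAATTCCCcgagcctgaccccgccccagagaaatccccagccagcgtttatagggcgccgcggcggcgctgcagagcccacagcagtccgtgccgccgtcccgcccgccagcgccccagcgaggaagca
TNFAIP3 (chr6:137867009-137867308, plus strand): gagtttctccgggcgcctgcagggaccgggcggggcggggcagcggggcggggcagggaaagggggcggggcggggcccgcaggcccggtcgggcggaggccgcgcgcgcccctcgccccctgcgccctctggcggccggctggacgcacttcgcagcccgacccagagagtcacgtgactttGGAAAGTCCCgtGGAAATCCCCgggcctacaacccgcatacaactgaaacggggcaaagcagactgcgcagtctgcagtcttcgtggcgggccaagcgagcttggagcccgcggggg
The NFKBIA window held 1 match, 81 to 72 bases before the start, and the TNFAIP3 window held 2, at 67 to 58 and at 55 to 46 bases before it. All 3 were matches on the opposite strand.

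A promoter entry was found for 8 of the 10 members, and not for RELB and NFKBIE. The matches in the members that did not pass the test are shown in stretches reaching 20 bases to each side, where the window allows, to compare them with those above. They have the same build and orientation, and 2 further stretches, in the third NFKB2 window and the second NFKBIZ window, are not printed.
NFKB1, start 1 (chr4:102501290-102501339, plus strand): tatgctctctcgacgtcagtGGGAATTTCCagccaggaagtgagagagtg
NFKB2, start 2 (chr10:102394451-102394529, plus strand): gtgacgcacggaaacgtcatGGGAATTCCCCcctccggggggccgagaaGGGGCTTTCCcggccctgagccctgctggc
NFKB2, start 3 (chr10:102395664-102395713, plus strand): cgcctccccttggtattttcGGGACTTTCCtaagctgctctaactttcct
REL (chr2:60881507-60881557, plus strand): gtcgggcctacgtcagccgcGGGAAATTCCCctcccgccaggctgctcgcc
NFKBIB, start 2 (chr19:38899921-38899971, plus strand): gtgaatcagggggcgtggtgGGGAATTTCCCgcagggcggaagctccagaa
NFKBIZ, start 1 (chr3:101827747-101827796, plus strand): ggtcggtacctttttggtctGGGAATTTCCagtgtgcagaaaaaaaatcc
In all, 7 of the 8 members held at least 1 match, or 9 of their 14 windows, counting each annotated start. Only RELA, with 2 windows, held none. Over all RefSeq promoter windows of this length, 5.91% held a match (2075 of 35116), and over the genes named on the array with an entry, 8.75% held one in at least 1 window. Members that fell and members that did not pass thus both carried the motif. A match describes letters in this window and not a bound site, and a window without one may still hold a site of other sequence.

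**Figure D1:**
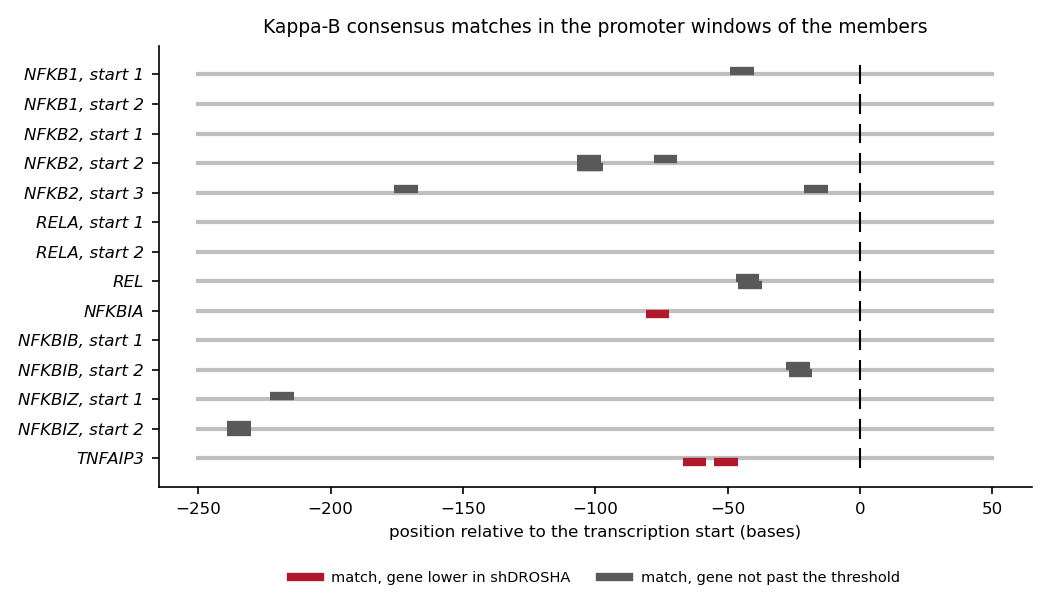
Positions of kappa-B consensus matches in the 14 promoter windows of the 8 members with an entry, in bases from the transcription start (vertical tick), with matches on the gene's strand above the line and on the opposite strand below it. NFKBIA and TNFAIP3 (red) and 5 of the members that did not pass the test (grey) hold matches, and both RELA windows hold none.

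The inhibitors are given first. NFKBIA had 9.32 and 9.41 in shDROSHA cells, against 9.66 and 9.70 in shNC cells (log2 signal). Both shDROSHA arrays lay below both shNC arrays, and the means were 9.37 ± 0.062 and 9.68 ± 0.027 (SD, n = 2 each). The difference was -0.31 (SE 0.068, 95% interval -0.46 to -0.17, adjusted p = 0.0136 in limma's trended fit, and 0.24 in the constant fit). The call was lost when either control array was left out: leaving out shNC replicate 1 gave an adjusted p of 0.0583 and a difference of -0.33, and leaving out shNC replicate 2 gave 0.0854 and -0.29. In RNA of a whole culture, fewer cells that express a gene and less of its RNA per cell cannot be told apart.

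TNFAIP3 had 7.39 and 7.20 in shDROSHA cells, against 7.68 and 7.95 in shNC cells. The groups did not overlap here either, although the arrays of each group lay further apart than for NFKBIA, with means of 7.29 ± 0.14 and 7.81 ± 0.193 (SD, n = 2 each). The difference was -0.52 (SE 0.126, 95% interval -0.79 to -0.25, adjusted p = 0.0249 in limma's trended fit, and 0.227 in the constant fit). Without shNC replicate 2, the higher control, it was -0.38 with an adjusted p of 0.229, and without shNC replicate 1 it was -0.65 with an adjusted p of 0.023.

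NFKBIZ encodes an atypical nuclear IkB protein that works with NF-kB at a subset of its targets, IL6 among them. It had 9.56 and 9.64 in shDROSHA cells, against 9.58 and 9.59 in shNC cells, so the shDROSHA arrays lay on either side of the controls. Its difference of 0.01 had a 95% interval of -0.13 to 0.16, the narrowest of the 10, and the difference of -0.31 seen for NFKBIA lies outside it. NFKBIB and NFKBIE encode the classical inhibitors IkB-beta and IkB-epsilon. NFKBIB had 5.13 and 5.30 in shDROSHA cells, against 5.33 and 5.23 in shNC cells, and the groups overlapped. NFKBIE had 5.75 and 5.60 in shDROSHA cells, against 6.02 and 5.67 in shNC cells, with 1 high control array and the other between the shDROSHA arrays. Their 95% intervals, -0.45 to 0.32 and -0.55 to 0.21, include differences as large as that of NFKBIA, so a fall of that size lies within the error of these dim probe sets.

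**Figure D2:**
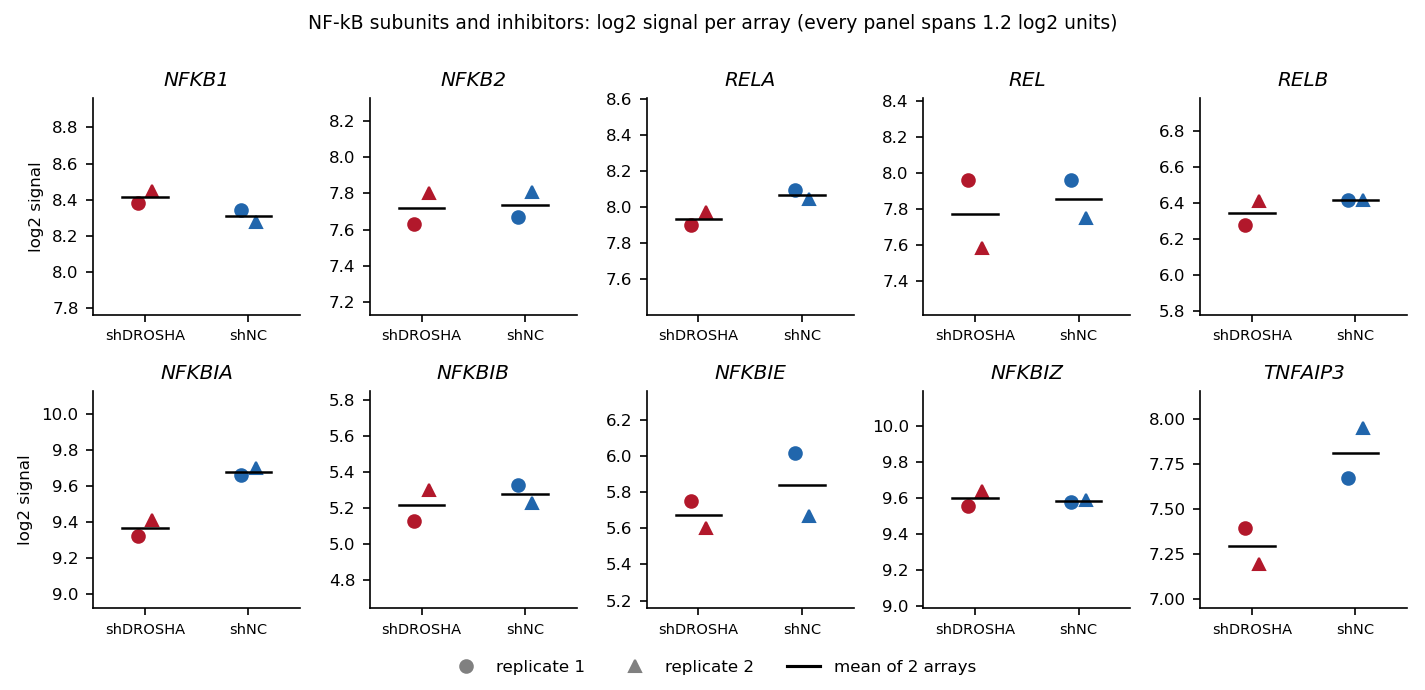
Log2 signal of each member on each array, with circles for replicate 1, triangles for replicate 2 and a line at the mean of the 2 arrays. Every panel spans the same range of log2 units around its gene's mean. The shDROSHA arrays lie well below the shNC arrays for NFKBIA (9.32 and 9.41 against 9.66 and 9.70) and TNFAIP3 (7.39 and 7.20 against 7.68 and 7.95), and close to or among them for the other 8.

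Among the subunits, none differed beyond the test's threshold. RELA, which carries the main transactivation domain of the canonical dimer, had 7.90 and 7.97 in shDROSHA cells, against 8.09 and 8.05 in shNC cells. Both shDROSHA arrays were lower, but the difference of -0.13 (SE 0.098) was small against its error (adjusted p = 0.516, limma). NFKB1, whose product is processed into the DNA-binding partner of RELA, had 8.38 and 8.45 in shDROSHA cells, against 8.34 and 8.27 in shNC cells. It was the only member with both shDROSHA arrays above both shNC arrays, at a difference of 0.11 (SE 0.089, adjusted p = 0.584, limma).

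RELB and NFKB2 make up the dimer of the non-canonical branch, in which the NFKB2 precursor is processed after a slower, kinase-driven signal. RELB had 6.28 and 6.41 in shDROSHA cells, against 6.42 and 6.42 in shNC cells, a difference of -0.07 (95% interval -0.39 to 0.24). NFKB2 had 7.63 and 7.80 in shDROSHA cells, against 7.67 and 7.81 in shNC cells. The groups overlapped, with replicate 2 the higher array in each, and the difference of -0.02 (95% interval -0.26 to 0.22) turned positive with median centring (0.015) and with quantile normalization repeated (0.020).

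REL encodes c-Rel, a subunit best known from lymphocytes. It had 7.96 and 7.58 in shDROSHA cells, against 7.96 and 7.75 in shNC cells, and replicate 1 was the higher array in both groups. The spread within groups exceeded the difference of -0.08 (SE 0.13, 95% interval -0.36 to 0.20), which lay between -0.27 and 0.11 when single arrays were left out. The 95% intervals of the 5 subunits all lay between -0.39 and 0.30, so a 1.43-fold change as in TNFAIP3 lies outside each of them. A difference of -0.31, as in NFKBIA, lies inside those of RELA, REL and RELB and outside those of NFKB1 and NFKB2. The intervals are for single genes and are not adjusted for their number.

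**Figure D3:**
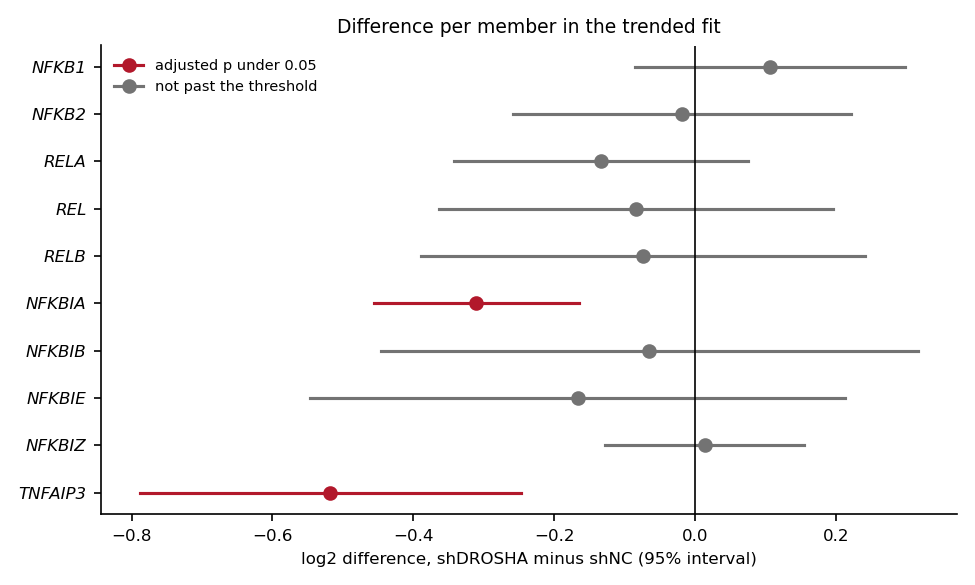
Log2 difference (shDROSHA minus shNC) of each member with its 95% interval in the trended fit. The intervals of NFKBIA (-0.46 to -0.17) and TNFAIP3 (-0.79 to -0.25) lie below 0, and those of the other 8 include 0.

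The arrays of the groups did not overlap at 5 of the 10 members, 4 lower (NFKBIA, TNFAIP3, RELA and RELB) and 1 higher (NFKB1). At 47.8% of all probe sets they did not overlap, 24.4% lower and 23.4% higher, so a count of 5 of 10 is close to the background. By sign alone, 8 members were lower and 2 higher as deposited, and 7 lower and 3 higher with median centring or with quantile normalization repeated. Of all probe sets, 9260 were lower and 9343 higher as deposited. Median centring moved the median difference of all probe sets from 0.001 to 0.034. With 2 arrays per group, groups that do not overlap must keep the sign of their difference when an array is left out. The kept signs of NFKBIA, TNFAIP3, RELA, RELB and NFKB1 thus only repeat the lack of overlap given above. The difference changed sign with an array left out for NFKB2, REL, NFKBIB, NFKBIE and NFKBIZ.

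**Figure D4:**
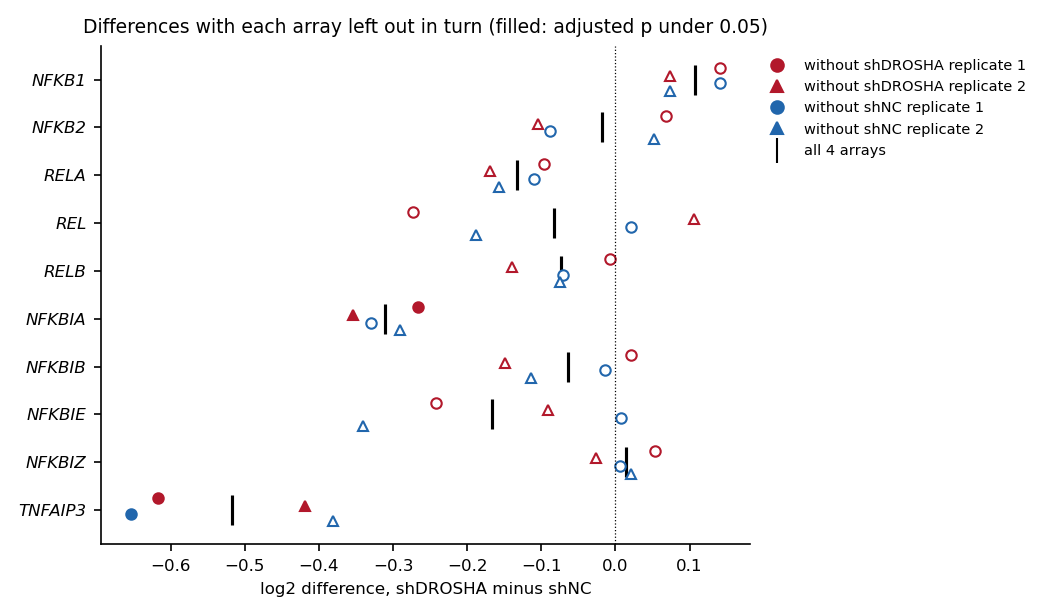
Log2 difference of each member with all 4 arrays (black bar) and with each array left out in turn, filled where the adjusted p was under 0.05. NFKBIA stays between -0.35 and -0.27 and TNFAIP3 between -0.65 and -0.38, and neither is called without shNC replicate 2 (adjusted p 0.0854 and 0.229).

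Genes that NF-kB dimers are known to induce were taken as a second list of 42, of which 36 had a named probe set. Of these, 7 fell (19.4%, beside 3.28% of all probe sets), 0 rose (beside 3.12%) and 29 did not pass, at a median difference of -0.06. The constant fit called 0 of the 36, with 9 at an unadjusted p under 0.05 (25%, beside 14.9% of all probe sets). The arrays did not overlap at 17 lower and 2 higher genes of the 36, beside 24.4% and 23.4% of all probe sets. The list holds chemokines and cytokines whose fall in these data was known when it was drawn up, so its direction is not independent of earlier results.

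The 2 largest differences were those of leukocyte-attracting chemokines. CCL2, which recruits monocytes, had 7.99 and 7.87 in shDROSHA cells, against 9.67 and 9.48 in shNC cells, and CXCL8, which recruits neutrophils, had 7.99 and 7.99 in shDROSHA cells, against 9.19 and 9.30 in shNC cells. The groups lay far apart for both, at differences of -1.64 (SE 0.09, adjusted p = 1.9e-07, limma) and -1.26 (SE 0.084, adjusted p = 1.42e-06, limma).

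The other 5 that fell were spread over roles. TNFRSF9, a costimulatory receptor of the TNF receptor family, fell by 0.72 (SE 0.147), and BCL2A1, an anti-apoptotic BCL2 relative, by 0.75 (SE 0.208) in a dim probe set (4.15 and 3.76 in shDROSHA cells, against 4.62 and 4.80 in shNC cells). BCL2A1 lost its call with median centring (adjusted p = 0.0561, limma). IER3, an immediate early survival gene, fell by 0.37 (SE 0.052), IL11, a cytokine of the interleukin-6 family, by 0.34 (SE 0.084), and PLAU, the urokinase plasminogen activator, by 0.26 (SE 0.055). Without shNC replicate 2, TNFRSF9, PLAU and BCL2A1 were not called (adjusted p 0.0842, 0.109 and 0.172). Without shNC replicate 1, IL11 and BCL2A1 were not called (adjusted p 0.233 and 0.0831), and without shDROSHA replicate 2, BCL2A1 was not called (adjusted p 0.228).

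Of the 29 that did not pass, 3 came near the threshold. LIF, a cytokine of the interleukin-6 family, differed by -0.37, CD83, a surface protein of activated immune cells, by -0.31, and BCL2L1, an anti-apoptotic BCL2 relative, by -0.20, with adjusted p of 0.0638, 0.0868 and 0.0984 in limma. Others lay close to 0. CXCL2, a neutrophil chemokine, differed by 0.07 (95% interval -0.18 to 0.32), ICAM1, an adhesion molecule, by 0.09 (-0.25 to 0.43), and GADD45B, a stress-induced survival gene, by 0.05 (-0.12 to 0.21). IL6 differed by -0.04 in a dim probe set, and its 95% interval of -0.50 to 0.42 includes falls as large as those of IER3, IL11 and PLAU. These 7 were chosen after their values were seen. The kappa-B consensus was found for 15 of the 28 list members with a promoter entry, beside 8.75% of the array's named genes with an entry. It was found for 1 of the 5 that fell (TNFRSF9) and 14 of the 23 that did not pass. CCL2 and IER3, which also fell, had no entry. Only full matches in this window were counted, so genes without one may still hold a site of other sequence or position.

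**Figure D5:**
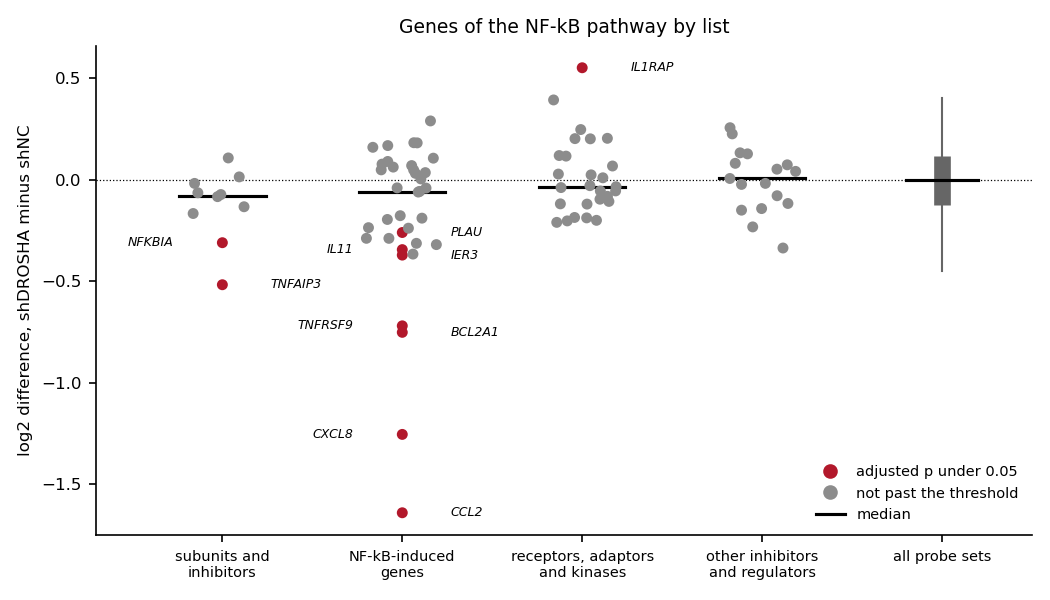
Log2 difference (shDROSHA minus shNC) of every measured gene of the 4 lists, red where the adjusted p was under 0.05, with the median as a line. The bar at the right shows all probe sets, over the central 95% (-0.45 to 0.40) with the quartiles as a box (-0.12 to 0.12). The genes that fell are 2 members and 7 NF-kB-induced genes, and 1 receptor subunit, IL1RAP, rose.

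The receptors, adaptors and kinases that lead to NF-kB formed another list of 33 genes, 27 of them measured. In this list 1 rose and 0 fell, which is 3.7% higher beside 3.12% of all probe sets, so the count is close to the background. The median was -0.04, and the constant fit called 0, with 2 at an unadjusted p under 0.05 (7.41%, beside 14.9%). IL1RAP, the accessory chain of the interleukin-1 receptor, had 7.34 and 7.11 in shDROSHA cells, against 6.75 and 6.59 in shNC cells, and rose by 0.55 (SE 0.138, adjusted p = 0.0288, limma). It was not called without shNC replicate 1 (adjusted p 0.0604), shNC replicate 2 (0.167) or shDROSHA replicate 1 (0.0813). BIRC2, a ubiquitin ligase that restrains the non-canonical branch, differed by 0.39 (SE 0.113) with an adjusted p of 0.0559, and its call depended on the setting. The fit with a replicate block called it (adjusted p = 0.0106, limma). Without shNC replicate 1 the difference was 0.22, and without shDROSHA replicate 2 it was 0.29. Without shNC replicate 2 it was 0.57, and without shDROSHA replicate 1 it was 0.50. TBK1, an IkB kinase relative, differed by 0.20 and RBCK1, of the linear ubiquitin ligase complex, by -0.19, without passing. The 3 subunits of the IkB kinase, named for their role, did not pass either, with differences of 0.07 for CHUK, -0.19 for IKBKB and 0.12 for IKBKG.

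Of 20 other inhibitors and regulators, 17 were measured, and 0 rose or fell in the trended fit, with a median of 0.01. In each fit 2 had an unadjusted p under 0.05 (11.8%, beside 14.9% of all probe sets in the constant and 19.3% in the trended fit). By sign 8 were lower and 9 higher as deposited, 9 lower and 8 higher with quantile normalization repeated, and 6 lower and 11 higher with median centring. TNIP1, a partner of the TNFAIP3 protein in shutting off the pathway, had 8.06 and 8.20 in shDROSHA cells, against 8.54 and 8.39 in shNC cells. Both shDROSHA arrays were lower, at a difference of -0.34 (SE 0.097, adjusted p = 0.0556, limma). The adjusted p in limma was 0.0352 when probe sets dimmer than the median were left out, 0.0808 with median centring and 0.0755 with quantile normalization repeated. Without shNC replicate 1 TNIP1 differed by -0.26, and without shDROSHA replicate 1 by -0.27. Without shNC replicate 2 or shDROSHA replicate 2 it differed by -0.41. RNF11, another partner of TNFAIP3, differed by 0.26, COMMD1, which promotes the degradation of RELA, by -0.23, and NFKBIL1 by 0.23, without passing. CYLD, a deubiquitinase that acts beside TNFAIP3 and is named for that role, differed by -0.12 (SE 0.102).

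Over the 4 arrays, the named genes whose centred log2 values lay closest to those of NFKBIA were APC, NBPF1 and GATD3, at root mean square differences of 0.0076, 0.013 and 0.013 log2 units. For TNFAIP3 they were ZDHHC7, HSPA1A and ARMC9, at 0.048, 0.061 and 0.063. They were found among 8253 brighter genes, and both the difference between groups and the order within them enter the measure. NBPF1, GATD3 and HSPA1A have near-identical copies that probes may not tell apart. Neither list holds the other member or an NF-kB-induced gene listed here, but this search cannot show whether those genes vary alike. Of the 36 measured NF-kB-induced genes, 21 lay below the median signal of all probe sets and were not candidates. The measure is in absolute log2 units, so genes with a much larger or smaller difference lie far off whatever their pattern.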

How the data were processed

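The authors deposited 1 table of log2 signals, 1 value per probe set and array, which they made with RMA per the submitters' processing notes (background correction, normalization between arrays and summary per probe set). No software version, build or filter is stated in the labels. The members and lists were chosen with earlier results of these data known, and so was the trended prior as the main fit. Symbols came from the platform annotation (15886 probe sets with 1 symbol, 2717 with none), matched by Entrez identifier to RefSeq. Where a gene has several probe sets the brightest over the 4 arrays counts.

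shDROSHA and shNC were compared with limma 3.58.1 in R 4.3.3 (lmFit, eBayes with an intensity trend) across all 18603 probe sets, with Benjamini-Hochberg adjustment and a threshold of 0.05. The fit was also run on simulated data, which cannot show whether the trended prior suits these arrays. The trended prior had 11.92 degrees of freedom and the constant one 3, added to 2 residual. SEs and 95% intervals are those of the trended fit. The smallest two-sided p of an exact permutation test with 2 arrays against 2 is 0.333, so the calls rest on a spread pooled across genes. The p-values thus set the difference between these samples mostly against that pooled spread. Nothing says whether the cultures were handled separately beyond the word biological, so how much variation between cultures it covers is not known. The number of arrays limits the precision, and RMA compresses differences of dim probe sets. Same-numbered arrays did not deviate together (correlation -0.022). Median log2 signals were 7.209 and 7.209 in shDROSHA and 7.249 and 7.236 in shNC arrays.

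Genes were named by rule: all members, DROSHA, the 4 genes with the smallest p and any further called gene of each list, and the 3 profiles nearest to NFKBIA and TNFAIP3. Outside it are the markers, CHUK, IKBKB, IKBKG and CYLD, named for their role, and the 7 further NF-kB-induced genes that the text says were chosen after their values were seen. The 3 primary microRNA transcripts listed in advance, MIR155HG, MIR3142HG and MIR21, had no named probe set and were not analysed here. The kappa-B consensus was searched on both strands of RefSeq promoter windows with Python 3.11.15.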

Additional observations from a re-analysis of the deposited data

How the results depend on the processing

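The alternatives were run with earlier results of these data known. Averaging a gene's probe sets was not run because every listed gene that was measured had 1. With 1 constant prior variance, 0 members, 0 NF-kB-induced genes, 0 receptors, adaptors and kinases and 1 of all probe sets were called (2, 9, 2 and 2774 at unadjusted p under 0.05 in limma). The 2 members stayed called under every other alternative that kept all 4 arrays, the replicate block among them (2 members, 1391 probe sets). Without 1 array, 0 to 2 members were called (0 without shNC replicate 2, 1 without shNC replicate 1), 4 to 9 NF-kB-induced genes (4 without shNC replicate 2), 0 to 2 receptors, adaptors and kinases, 0 to 1 other regulators and 535 to 1949 probe sets. Without either shDROSHA array the prior had infinite degrees of freedom, so its p-values take no spread from the gene itself. The receptor count was 2 without the dimmest 25% of probe sets, with median centring, over 1 probe set per gene and with the block, while it was 3 at adjusted p 0.10. The count of other regulators was 1 without probe sets below the median signal, without the dimmest 25% and over 1 probe set per gene, while it was 2 at adjusted p 0.10. At that threshold 1824 probe sets were called. NFKB2, uncalled throughout, reversed to 0.020 with quantile normalization and 0.015 with median centring. Single arrays left out gave -0.104 to 0.068 for NFKB2, -0.27 to 0.11 for REL, -0.15 to 0.021 for NFKBIB, -0.34 to 0.0079 for NFKBIE and -0.026 to 0.053 for NFKBIZ.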
